A study of Mus musculus with 4 samples.

Results

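The 10 genes described here encode the NF-kB subunits and a set of genes that feed back on the pathway. They were chosen by name from the rows of the deposited count table, which holds 26561 genes: Nfkb1, Nfkb2, Rela, Relb, Rel, Nfkbia, Nfkbie, Tnfaip3, Birc2 and Birc3. All 10 were found and all 10 passed the filter on low counts. The lowest count of any of them in any library was 124. The libraries hold messenger RNA of MC38, a wild-type tumour line that derives from a colon adenocarcinoma of the mouse. One group of 2 libraries came from cells labelled as non-irradiated. The other group of 2 libraries came from cells that received 30 Gy of X-rays as 1 fraction, with RNA taken 60 h later. All libraries come from 1 cell line, and no harvest time for the unirradiated cells is given in the sources used here, so time in culture and irradiation cannot be told apart.

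NF-kB is a family of dimeric transcription factors that share a DNA-binding Rel homology domain. In resting cells the dimers are held in the cytoplasm by IkB proteins. In the canonical pathway the IKK complex marks IkB for degradation and releases dimers that contain RELA or REL. In the alternative pathway the kinase NIK leads to processing of the NFKB2 precursor and to active RELB dimers. Several NF-kB target genes encode inhibitors of the pathway itself, among them IkB alpha, IkB epsilon and the ubiquitin-editing enzyme A20, so that their transcripts are widely used as readouts of pathway output. The pathway is known to respond to DNA double-strand breaks and to cytokines in tumour cells.

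Of the 10 genes, 9 were higher in irradiated cells and 1, Nfkb1, was lower. The inhibitor genes Tnfaip3 and Nfkbie rose most, 2.88-fold and 2.68-fold. Birc2, Nfkbia, Birc3 and Relb each rose close to 2-fold, and Nfkb2, Rel and Rela rose by less. Of the 15298 genes that entered edgeR's quasi-likelihood test, 60.7% passed at a Benjamini-Hochberg adjusted p under 0.05, 30.4% as higher and 30.3% as lower. Among the 8902 tested genes whose mean level lay within the range of these 10 genes, 29.3% were higher and 42.3% lower. A rise of at least 2-fold that passed the test was found for 4 of the 10 genes, 12.4% of all tested genes and 3.98% of the genes in that range of levels. The median log2 fold change was 0.96 over the 10 genes and 0.01 over all tested genes. The libraries of the groups did not overlap in any of the 10 genes, nor in 78.4% of tested genes. The irradiated pair was the higher one in 9 genes, as in 39.7% of tested genes, and the lower one in 1 gene, as in 38.7%.

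**Figure D1:**
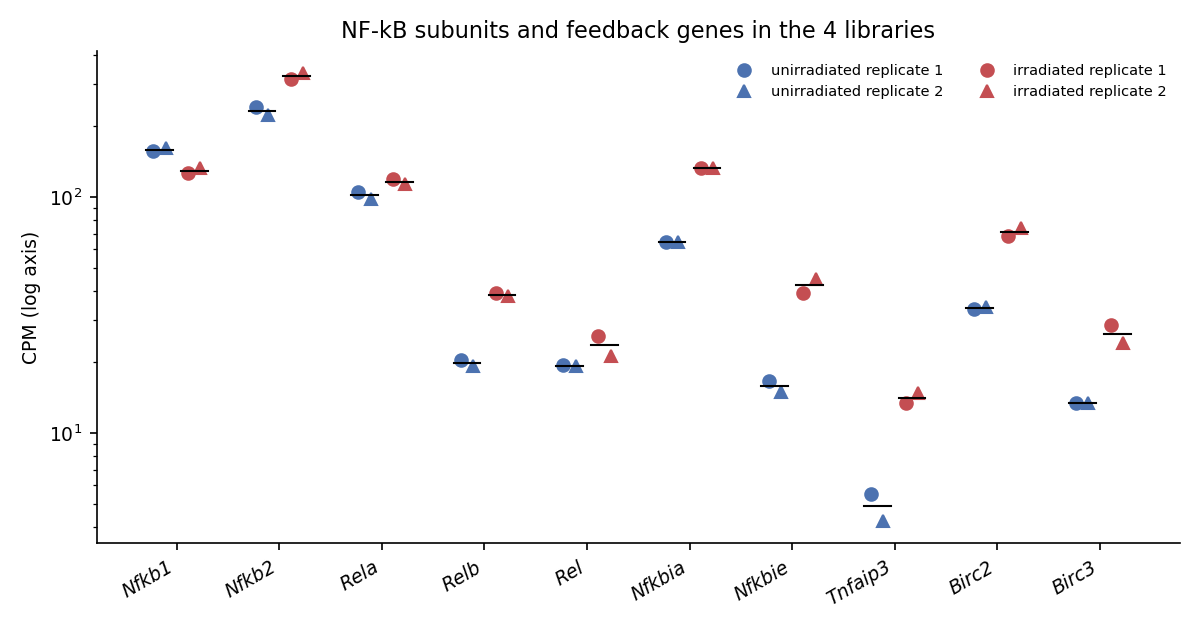
Level of each gene in CPM (counts scaled to the library size, log axis) in each library. Circles are replicate 1 and triangles replicate 2, blue is unirradiated, red is irradiated, and black lines are group means. Nfkb1 is the gene whose irradiated points lie below the unirradiated ones, and the irradiated replicates of Rel lie farther apart than the unirradiated ones.

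Total counts ran from 26059171 to 29881492 per library. More genes had a count above 0 after irradiation (22713 and 22663) than without it (19413 and 19531), and the part of this difference in the results was not tested. Separate cultures are not mentioned in the labels, so the p-values rest on a spread between libraries that may be purely technical. Fewer cells of a kind and less RNA per cell cannot be told apart in such bulk libraries. The labels call the line epithelial. Its 6 epithelial markers summed to 36.5 to 38.4 CPM without and 69.9 to 75.7 CPM with irradiation. Most of this sum was Cdh1 in every library (998 and 1009 counts unirradiated, 2173 and 1798 irradiated). Of the 6 markers, 3 had under 10 counts over all libraries together. Epcam was at 0 counts in 3 libraries and at 1 in irradiated replicate 2. Of the 3 tested epithelial markers, 2 passed as higher and 1 was lower in both irradiated libraries without passing. Of 8 macrophage markers listed, 6 had a row in the count table. Their sum was 8.73 to 10.8 CPM in unirradiated and 39.5 to 45.8 CPM in irradiated libraries. All 4 tested macrophage markers were higher in both irradiated libraries, and 2 of them passed the test. Cd68, a lysosomal protein gene, rose from 127 and 112 to 1120 and 840 counts and made up most of the sum in irradiated libraries. In unirradiated libraries Cd14 had more counts than Cd68. Lyz2, a lysozyme gene that passed the filter only through the irradiated group, had 0 and 2 against 23 and 20 counts. Ptprc had 10 and 6 against 24 and 17 counts and Cd14 had 159 and 135 against 195 and 168, without passing. Adgre1 and Csf1r had at most 2 counts in any library. Of 9 lymphocyte markers listed, 7 had a row in the count table. They summed to 0.411 to 0.837 and 1.38 to 1.43 CPM, with Cd3e and Cd3g at no more than 1 count in any library. The only tested gene of this list was Ptprc, which is also in the macrophage list. Fibroblast markers (7 analysed) summed to 848 to 857 CPM in unirradiated and 1104 to 1126 CPM in irradiated libraries, mostly Col1a2. All 5 tested fibroblast markers passed as higher. Endothelial markers (6 analysed) summed to 3.12 to 4.73 and 16.1 to 16.9 CPM. All 3 tested endothelial markers passed as higher, as did 30.4% of all tested genes. The part of these marker shifts in the results was not tested.

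The promoters of 8 of the 10 genes were read from RefSeq (build GRCm38.p6), as windows of 300 bases that run from 250 bases before to 50 bases after an annotated start. They are shown because the decameric kB site to which NF-kB dimers bind was searched in them. The kappaB consensus, read on both strands, matched in windows of 5 of these 8 genes (Nfkb2, Rel, Nfkbia, Nfkbie and Tnfaip3), against 5.14% of all 27025 genes. Counted by window, it matched in 7 of 12 windows of these genes and in 4.51% of all 32851 windows. Overlapping windows of Nfkb2 share a matched site, which is counted in each of them. It did not match in the windows of Rela, Birc2 or Birc3, which says only that these letters are not in these windows. A looser form, GGGNNNNNCC, includes every consensus match and occurred in windows of 7 of the 8 genes, but also in those of 53.5% of all genes (50.8% of windows). Its match in Birc3 was GGGATAGGCC, with the first base 57 bases before the start. A match is a description of letters and not evidence of binding. The stretches around the consensus matches that lie before the RefSeq start of a window follow, for Nfkb2 from the first of its windows, written 5′ to 3′ on the gene's strand, with the bases covered by a match in capitals.
Nfkb2 (chr19:46304689-46304717, plus strand): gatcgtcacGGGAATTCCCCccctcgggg
Nfkb2 (chr19:46304717-46304736, plus strand): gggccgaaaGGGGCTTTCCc
Rel (chr11:23771042-23771070, minus strand): gtaagcagcGGGAAATCCCCccccctccc
Nfkbia (chr12:55492658-55492685, minus strand): gactggcttGGAAATTCCCcgcgcctga
Nfkbie (chr17:45555585-45555612, plus strand): cagcaaacaGGGGGATTCCggaggggcg
Tnfaip3 (chr10:19015517-19015544, minus strand): actcacgcgGGGACACCCCggggcggga
Tnfaip3 (chr10:19015411-19015431, minus strand): atttccatcGGAAATCCCCct
In Nfkb2 and Rel the consensus reads on both strands at nearly the same place, so the capitals cover 2 overlapping registers. In the GENCODE annotation the Nfkb2 and Tnfaip3 genes begin farther upstream than these RefSeq starts, so that their stretches lie inside the gene, in an exon for Nfkb2 and outside any exon of the gene for Tnfaip3.

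Among the subunits, Relb and Nfkb2 of the alternative pathway rose, Rela and Rel rose little, and Nfkb1 fell. Nfkb1 (ENSMUSG00000028163, chr3:135584655-135691547, GRCm38, minus strand) encodes the p105 precursor of p50, the most common partner of RELA. Its level was 156 and 161 CPM without and 126 and 132 CPM with irradiation, where CPM are counts per 1e+06 counts of the scaled library. Both irradiated libraries were lower. The decrease was 1.23-fold (log2 fold change -0.29, SE 0.04, edgeR adjusted p = 1.12e-10).

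Nfkb2 (ENSMUSG00000025225, chr19:46304320-46312385, plus strand) encodes the p100 precursor of p52, which also acts as an inhibitor of RELB. Its level was 240 and 223 CPM without and 317 and 335 CPM with irradiation, and the groups did not overlap. It rose 1.41-fold (log2 fold change 0.49, SE 0.03, edgeR adjusted p = 2.22e-44). Exons of Nfkb2 overlap those of Psd on the other strand over 299 bases. Psd held 19% as many counts and itself rose by 0.97 on the log2 scale (edgeR adjusted p = 3.44e-46). Whether the counting kept strand is not known here, so reads of that stretch cannot be told apart.

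Relb (ENSMUSG00000002983, chr7:19606217-19629438, minus strand) encodes the partner of p52 in the alternative pathway. Its level was 20.5 and 19.3 CPM without and 39.0 and 38.0 CPM with irradiation. It was the subunit gene with the largest change, 1.94-fold (log2 fold change 0.95, SE 0.09, edgeR adjusted p = 2.06e-24). Rela (ENSMUSG00000024927, chr19:5637483-5648130, plus strand) encodes p65, the main activating subunit of the canonical pathway. Its level was 105 and 97.8 CPM against 119 and 114 CPM, a rise of 1.14-fold (log2 fold change 0.19, SE 0.05, edgeR adjusted p = 2.13e-04).

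Rel (ENSMUSG00000020275, chr11:23736847-23770970, minus strand) encodes c-REL, a subunit best known from lymphocytes. Its level was 19.4 and 19.3 CPM in unirradiated cells and 25.8 and 21.2 CPM in irradiated cells. The irradiated replicates differed from each other by more than the lower of them differed from the unirradiated ones. The fitted rise was 1.22-fold (log2 fold change 0.29, SE 0.10, edgeR adjusted p = 0.0115). This call rested on single libraries. Without irradiated replicate 1 the log2 fold change was 0.13 (edgeR adjusted p = 0.428), without unirradiated replicate 1 the adjusted p was 0.0644 and without unirradiated replicate 2 it was 0.0705. DESeq2 gave an adjusted p of 0.0553.

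Because the subunits act as dimers, their transcripts were also set against each other within each library, which removes the scaling between libraries. The count of Nfkb2 was 1.54 and 1.39 times that of Nfkb1 in unirradiated cells and 2.51 and 2.53 times in irradiated cells. For Relb over Rela the ratio of counts was 0.194 and 0.197 without and 0.328 and 0.334 with irradiation. Both ratios were higher in both irradiated libraries. With 2 libraries against 2 an exact permutation test of such a ratio cannot go below p = 0.333 (two-sided), so they are given without a test.

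Levels of different genes can be compared only per length, and FPKM (CPM per kilobase of annotated exon) were used for this. The length was that of all annotated exons of a gene, joined over its transcripts. It was 12061 bases for Nfkb1, 4584 for Nfkb2 and 3072 for Rela. The transcripts present in these cells may be shorter, so the order of genes and their shares depend on this length. In unirradiated libraries Nfkb2 was the highest of the subunits at 52.4 and 48.7 FPKM. Rela followed at 34.3 and 31.8 FPKM, Nfkb1 at a mean of 13.1, Relb at 5.26 and 4.96, and Rel at 2.59 and 2.58 FPKM. The order was the same after irradiation, although the gap between Nfkb1 (mean 10.7 FPKM) and Relb (mean 9.91 FPKM) was then small. As a share of the summed FPKM of the 5 subunits, Nfkb1 made up 12.6% ± 0.765 without and 8.08% ± 0.201 with irradiation (SD, n = 2 in each group). Relb made up 4.90% in both unirradiated libraries and 7.47% ± 0.211 after irradiation, and Nfkb2 made up 48.4% ± 0.519 and 53.6% ± 1.53. The share of Rela was 31.7% ± 0.340 and 28.5% ± 1.16, and that of Rel was 2.48% ± 0.0933 and 2.37% ± 0.355, whose libraries overlapped.

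**Figure D2:**
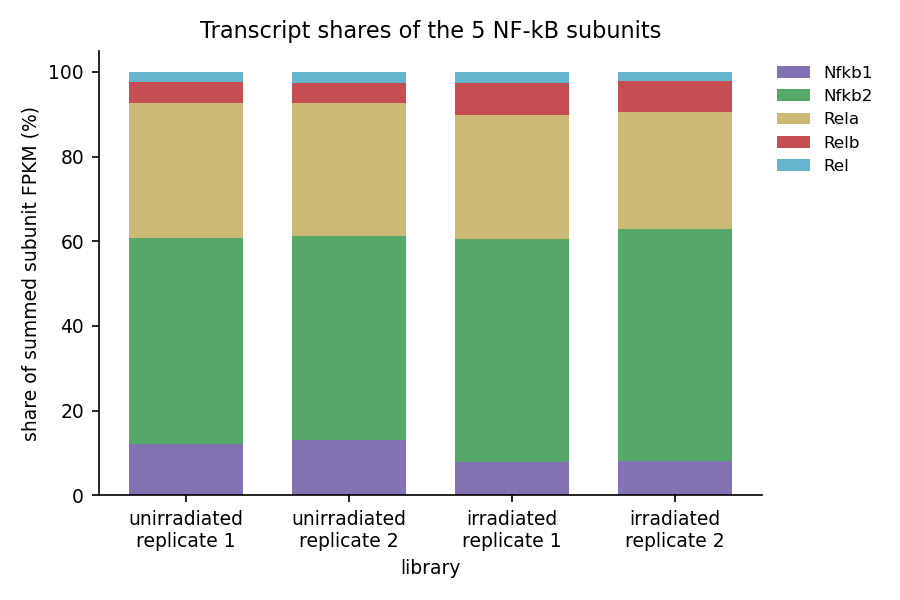
Share of each NF-kB subunit in the summed FPKM of the 5 subunit genes (%, vertical axis) in each of the 4 libraries. The shares depend on the joined exon length used for each gene. Nfkb1 makes up 12.1% and 13.1% of the unirradiated bars and 7.94% and 8.22% of the irradiated ones, while the Relb segment widens from 4.90% in both unirradiated libraries to 7.62% and 7.32%.

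Both IkB genes rose. Nfkbia (ENSMUSG00000021025, chr12:55489410-55492647, minus strand) encodes IkB alpha, which removes NF-kB from DNA and returns it to the cytoplasm. It stood at 64.3 CPM in both unirradiated libraries and at 133 CPM in both irradiated ones, so its replicates were nearly equal. The rise was 2.07-fold (log2 fold change 1.05, SE 0.05, edgeR adjusted p = 4.18e-87). Nfkbie (ENSMUSG00000023947, chr17:45555703-45563169, plus strand) encodes IkB epsilon, a slower inhibitor of RELA and REL dimers. Its level was 16.6 and 14.9 CPM without and 39.3 and 45.1 CPM with irradiation. It rose 2.68-fold (log2 fold change 1.42, SE 0.09, edgeR adjusted p = 2.68e-50).

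The inhibitor transcripts were also set against that of a factor they hold. Nfkbia counts were 0.610 and 0.657 times those of Rela in unirradiated libraries and 1.12 and 1.17 times in irradiated ones. Nfkbie counts were 0.259 and 0.232 times those of Nfkbia without and 0.295 and 0.340 times with irradiation. In FPKM, Nfkbia was second to Nfkb2 in the unirradiated group (39.9 FPKM in both libraries). It was first of all 10 genes in the irradiated group (82.7 and 82.4 FPKM, against 69.2 and 73.0 for Nfkb2).

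Tnfaip3 (ENSMUSG00000019850, chr10:19000910-19015657, minus strand) encodes A20, which edits ubiquitin chains on signalling proteins upstream of IKK. It was the lowest of the 10 genes in both groups, at 0.765 and 0.588 FPKM without and 1.85 and 2.04 FPKM with irradiation. Its counts were 152 and 124 in unirradiated libraries and 398 and 391 in irradiated ones, or 5.53 and 4.25 against 13.4 and 14.7 CPM. Both irradiated libraries were far above both others. Its rise of 2.88-fold was the largest of the 10 genes (log2 fold change 1.52, SE 0.16, edgeR adjusted p = 1.42e-19). A larger log2 fold change was fitted for 9.11% of all tested genes.

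Birc2 and Birc3 encode the cellular inhibitors of apoptosis cIAP1 and cIAP2, ubiquitin ligases that serve in TNF receptor complexes and that keep NIK, the kinase of the alternative pathway, at a low level. The genes are neighbours on chromosome 9, both on the minus strand and 11634 bases apart. Birc2 (ENSMUSG00000057367, chr9:7818227-7837064) stood at 33.6 and 34.2 CPM in unirradiated cells and 68.2 and 73.9 CPM in irradiated cells. It rose 2.10-fold (log2 fold change 1.07, SE 0.07, edgeR adjusted p = 3.68e-55). Birc3 (ENSMUSG00000032000, chr9:7848699-7873186) stood at 13.4 CPM in both unirradiated libraries and at 28.6 and 24.1 CPM in the irradiated ones. It rose 1.97-fold (log2 fold change 0.98, SE 0.11, edgeR adjusted p = 5.09e-18).

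The counts of Birc3 were 0.400 and 0.392 times those of Birc2 in unirradiated libraries and 0.419 and 0.326 times in irradiated ones, so the ratios of the groups overlapped. Their transcripts have 65 stretches of 50 bases in common, out of 4579 in Birc2 and 5079 in Birc3, and reads from these could be dropped or divided. No other pair of the 10 genes shared such a stretch. Per length, Birc2 was above Birc3 in every library. Unirradiated libraries had 7.33 and 7.47 against 2.68 and 2.68 FPKM, and irradiated ones 14.9 and 16.1 against 5.71 and 4.81 FPKM.

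**Figure D3:**
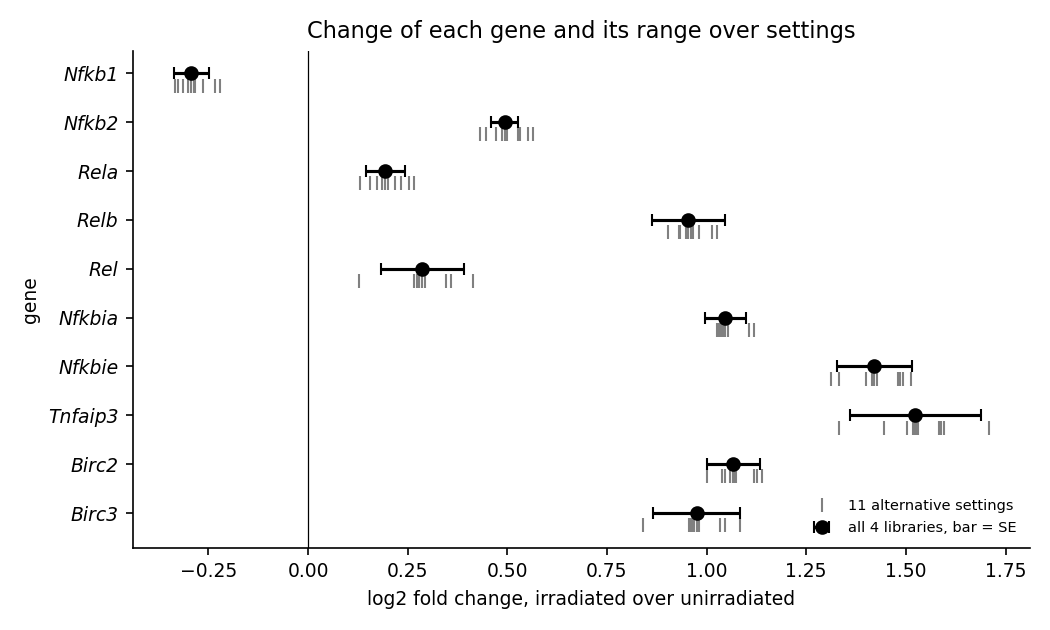
Log2 fold change of each gene, irradiated over unirradiated (horizontal axis). Black points and bars are the edgeR estimate and its standard error with all 4 libraries, and grey ticks are the estimates under 11 alternative settings. All ticks stay on the side of 0 of their black point, and those of Rel come closest to 0, at 0.13.

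The rest of the pathway was described from lists of other components. Of 16 genes for other IkB proteins, the IKK complex and its upstream kinases, all tested, 7 rose, 2 fell and 7 did not pass. Of all tested genes 30.4% rose and 30.3% fell. The median log2 fold change of the list was 0.12. Bcl3, a nuclear IkB protein that binds p50 and p52 dimers, rose from 4.37 and 4.38 to 7.49 and 7.23 CPM (log2 fold change 0.75, SE 0.20, edgeR adjusted p = 4.77e-04). Map3k14, which encodes NIK, rose from 43.7 and 43.9 to 64.7 and 63.6 CPM (0.55, SE 0.07, edgeR adjusted p = 2.11e-16). Ikbkg, the regulatory IKK subunit NEMO, rose by the same log2 fold change of 0.55 (edgeR adjusted p = 3.52e-32), but its exons overlap the abundant G6pdx on the other strand. The catalytic IKK genes did not pass: Chuk had a log2 fold change of -0.01 and Ikbkb of -0.06 (edgeR adjusted p = 0.897 and 0.377). These last were chosen after their values were seen. Tab1, a partner of the kinase TAK1, fell (-0.47, edgeR adjusted p = 2.09e-07). Nfkbiz, a nuclear IkB protein, fell by 0.23 on the log2 scale (edgeR adjusted p = 0.00808), a call that was lost with upper-quartile factors (adjusted p = 0.0771), with library size alone (0.0544), without unirradiated replicate 2 (0.0920) and without irradiated replicate 1 (0.301), so that 1 gene of this list was then lower.

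Of 27 adaptor and ubiquitin enzyme genes, all tested, 9 rose, 3 fell and 15 did not pass (median log2 fold change 0.03). Of all tested genes 30.4% rose and 30.3% fell, so 9 of 27 is near the share of all genes. Irak2, a kinase of the interleukin-1 and Toll-like receptor pathways, rose 2.03-fold from 6.84 and 6.30 to 13.2 and 13.4 CPM (edgeR adjusted p = 3.06e-10). Tnip1, which encodes the A20-binding protein ABIN1, rose 1.89-fold from 37.3 and 40.3 to 70.1 and 76.4 CPM (edgeR adjusted p = 4.67e-44). Ripk2, the kinase downstream of NOD receptors, rose 1.47-fold (edgeR adjusted p = 2.25e-05). The genes that fell were Ube2n, which builds lysine-63 ubiquitin chains, Cyld, a deubiquitinase that restrains the pathway, and Irak1. Their log2 fold changes were -0.47, -0.34 and -0.31 (edgeR adjusted p = 2.24e-15, 3.15e-24 and 4.38e-12). Cyld went the other way from Tnfaip3 and Tnip1, which also encode negative regulators.

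Receptor genes went both ways, with 6 of 11 tested higher and 4 lower out of 15 listed, against 30.4% and 30.3% of all tested genes. Among those higher, Eda2r had low counts (18 and 8 unirradiated, 85 and 72 irradiated) and passed the filter through the irradiated group. Il1r1, the signalling receptor of interleukin-1, rose 4.66-fold from 2.98 and 3.84 to 15.9 and 16.0 CPM (edgeR adjusted p = 7.72e-38). Its co-receptor gene Il1rap fell 1.57-fold, from 89.0 and 94.6 to 59.5 and 57.5 CPM (edgeR adjusted p = 6.18e-30). Tlr3 and Tlr4, which sense double-stranded RNA and lipopolysaccharide, rose 2.24-fold and 1.88-fold (edgeR adjusted p = 3.66e-29 and 2.05e-62). Tnfrsf12a, the receptor of TWEAK and an activator of the alternative pathway, fell 2.36-fold from 160 and 164 to 70.2 and 67.1 CPM (edgeR adjusted p = 1.09e-135). Tnfrsf1a, TNF receptor 1, fell by 0.59 on the log2 scale (edgeR adjusted p = 2.27e-24). Chosen after their values were seen, Ltbr, the lymphotoxin beta receptor, fell by 0.49 on the log2 scale (edgeR adjusted p = 4.37e-15) and Tnfrsf1b, TNF receptor 2, rose by 0.79 (edgeR adjusted p = 2.17e-50).

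Ligand transcripts were scarce. Of 12 ligand genes listed, 9 had a row in the count table, and 6 of these lay below the filter on low counts. Tnf had 0 and 0 counts in unirradiated and 2 and 0 in irradiated libraries, and Il1b had 0 and 0 against 1 and 1. Il1a had 4 and 0 against 2 and 5 counts, and Lta had 2 and 5 against 1 and 0. Ltb, which encodes lymphotoxin beta, had 0 and 0 against 9 and 6 counts. A count of 0 allows up to 3 counts in a library, or 0.101 to 0.113 CPM, and this limit covers counting error only. Of the 3 tested, Il18 (66 and 60 against 165 and 200 counts, edgeR adjusted p = 8.24e-10) and Tnfsf13b, which encodes BAFF (4 and 7 against 37 and 31 counts, edgeR adjusted p = 2.76e-04), rose. Tnfsf13b passed the filter only through its level in the irradiated group and so had to differ, and its p gives no support of its own. Tnfsf12, which encodes TWEAK, had a log2 fold change of 0.03 (edgeR adjusted p = 0.882). Over 731 of its 1515 exon bases it overlaps Tnfsfm13 on the same strand, and reads there cannot be told apart. These ligands were named after their values were seen.

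Of 32 textbook NF-kB target genes listed, 29 had a row in the count table and 23 were tested. Of these 23, 17 rose and 3 fell, against 30.4% and 30.3% of all tested genes. Their median log2 fold change was 1.17, also when Nos2, at 0 counts in both unirradiated libraries, is taken at its lower bound. Genes that passed the filter through the irradiated group alone had to differ, so this count and median describe the tested genes only. The list holds genes that interferons also induce, such as Cxcl10, Irf1, Tap1 and Psmb9. Mmp9, a matrix metalloproteinase, rose 8.63-fold from 0.801 and 1.64 to 10.6 and 10.7 CPM (edgeR adjusted p = 4.92e-39). Icam1, an adhesion molecule, rose from 25 and 18 counts without to 269 and 257 with irradiation (edgeR adjusted p = 1.49e-40). Cxcl10, a T cell chemokine, rose from 26 and 20 to 818 and 763 counts (edgeR adjusted p = 1.06e-160). The genes that fell were Bcl2l1, which encodes the survival protein BCL-XL (127 and 126 against 69.0 and 70.9 CPM, edgeR adjusted p = 1.62e-59), Ptgs2, cyclooxygenase 2 (log2 fold change -0.52, edgeR adjusted p = 4.81e-18), and Sod2, mitochondrial superoxide dismutase (-0.33, edgeR adjusted p = 1.50e-07).

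**Figure D4:**
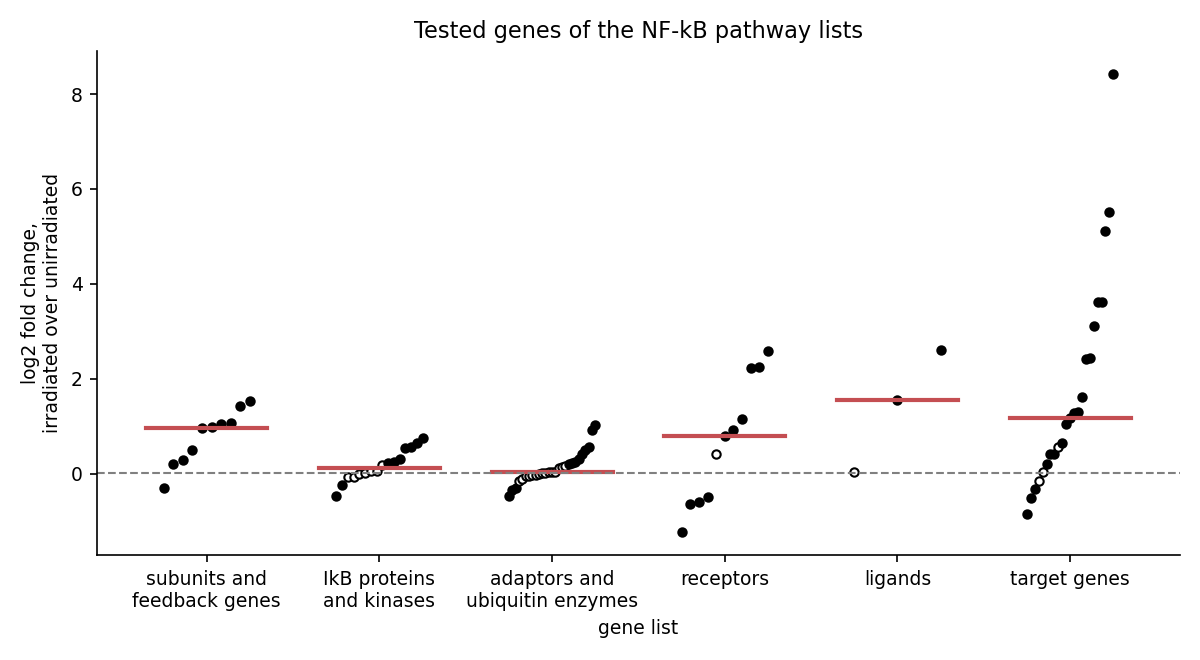
Log2 fold change, irradiated over unirradiated (vertical axis), of each tested gene in the 6 lists. Filled points passed the test, open points did not, red lines are list medians and the dashed line is the median of all tested genes (0.01). The 10 subunit and feedback genes centre on 0.96, the kinase and adaptor lists on 0.12 and 0.03, and the receptors split to both sides. The highest target point, Nos2, is a fitted value that depends on the prior count.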

How the data were processed

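The authors deposited raw counts for Ensembl genes in 1 column per library, per the file headers, and the values are whole numbers that were not pooled. Tools named in the submitters' processing notes are HTSeq, HISAT2, HISAT and DESeq2, with mm10 as the genome build and no versions. The annotation, the strand setting and the rule for reads with several matches are not stated there. Sample titles gave the groups and replicate numbers. For unirradiated replicate 2 the title conflicts with a description that repeats the other replicate's number, and the title was used since the column carries it.

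The counts were tested with edgeR 4.0.16 in R 4.3.3 (TMM, filterByExpr by group, glmQLFit with robust estimation, glmQLFTest), with Benjamini-Hochberg adjustment over the 15298 genes that passed the filter. A gene is said to rise or fall at an adjusted p under 0.05. Standard errors were taken as the size of the log2 fold change over the root of F. For 9 of the 10 genes the estimated prior degrees of freedom were infinite, so that their spread came from the trend over all genes. For Nfkb2 they were 27404 against 2 residual ones, so its spread also came almost wholly from the trend. CPM used TMM-scaled library sizes, and FPKM divided these by the exon length in GENCODE M21, of the same build as mm10 but not necessarily the release the authors used. On simulated data with 50 genes planted at each fold, the fit recovered 10 at 1.2-fold, 44 at 1.5-fold and 49 at 2-fold. There were 6 false calls among 15143 genes. In the simulation only the planted genes changed and all genes had the same spread (a coefficient of variation of 4.57%). In the real data 60.7% of tested genes passed, so these figures do not give the recovery or false calls there.

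The 10 genes and the lists were chosen with earlier results of these data known. Named by rule were the 10 genes and, of each pathway list, up to 3 higher and 3 lower genes with the largest change among those called with a mean of at least 5 CPM. DESeq2 1.42.0, other scalings, no filter, a replicate block and leaving out each library were tried as alternatives.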

Additional observations from a re-analysis of the deposited data

How the results depend on the processing

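Under 11 alternatives (DESeq2 size factors, upper-quartile factors and library size alone in edgeR, no filter, DESeq2, no robust estimation, a replicate block, and leaving out each library), 9 of the 10 genes kept their direction and their call. The exception was Rel, which kept its direction and lost its call under 4 of them. The number of the 10 genes that were higher was 8 with DESeq2 and 8 to 9 without 1 library, and 1 was lower throughout. Over all alternatives the log2 fold change of Rela ran from 0.13 to 0.27, with a highest adjusted p of 0.0495 without unirradiated replicate 2. With 1 library left out, the lone library of its group is assumed to vary like the others. In the list of other IkB proteins and kinases the number of genes lower was 1 with upper-quartile factors and 1 with library size alone, against 2. The call lost there was that of Nfkbiz, and the cause was not tested. No shared effect of the replicate number was visible, as the deviations of same-numbered libraries from their group means had a correlation of -0.01 across genes. With 2 libraries per group this cannot show whether same-numbered libraries were cultured or processed together. With the replicate block, 9 of the 10 genes were higher and 1 was lower, as without it. The shift of the median of all tested genes was at most 0.08 (upper-quartile factors). Of the 33 genes named by rule, Rel and Nfkbiz were those that lost a call under any alternative, and none reversed. The 6 ligand genes below the filter on low counts were not tested.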

Other observations

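The similarity of the 10 genes to one another and to the pathway lists was described by the Euclidean distance between their log2(CPM + 1) values over the 4 libraries, each centred on its own mean, among 77 candidate genes of at least 5 CPM. With 4 libraries in 2 groups this distance mostly reflects the size of the change, and it carries no test. Nfkbie and Tnfaip3, which encode inhibitors, were nearest to each other (distance 0.126), as were Nfkbia and Birc2 (0.0872). The gene nearest to Relb was Irak2 (0.0421), the one nearest to Birc3 was Relb (0.153), and the one nearest to Nfkb2 was Ripk2 (0.0733). Nfkb1, the subunit gene that fell, lay nearest to Sod2 (0.0542). The nearest to Rela was Tax1bp1, an adaptor of A20 (0.0701), and the nearest to Rel was Myd88, the adaptor of Toll-like receptors (0.139).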
